A study of Brassica napus with 18 samples.

Results

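R4817 is a rapeseed accession that carries haplotype 2 of BnaC3.LFY, as do R4168 and R4210, and its shoot apices were set against those of these other haplotype 2 accessions across all gene models with enough reads to test. Of 107233 gene models in the count table, 53356 passed the low-count filter in the 9 haplotype 2 libraries and entered the comparison. The difference tested was the R4817 mean minus the average of the R4168 mean and the R4210 mean, on the log2 scale. The libraries were assigned to accessions by the labels, and the gene models were taken by the filter.

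The study sequenced poly(A)-selected RNA from shoot apices of field-grown Brassica napus. R4817, R4168 and R4210 each gave 3 libraries, and the haplotype 1 accessions R5044, R5159 and R5161 also gave 3 each, which makes 18 libraries of 6 accessions. All 9 libraries of the comparison share haplotype 2 of BnaC3.LFY, so no difference between them follows the split of haplotypes that the study was built on. The labels name the accessions by number and give no treatment, no growth stage, no relationship between accessions and no count of plants per library, and for each accession they leave unsaid if its 3 libraries are separate plants, plots or repeats of a pool. A p-value therefore measures the spread between these libraries, which may be technical, and describes these accessions.

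Brassica napus is an allotetraploid: its nucleus holds an A subgenome, which came from Brassica rapa, and a C subgenome, which came from Brassica oleracea. Most genes are therefore present as an A copy and a C copy, called homoeologues, which lie in similar order on matching chromosomes. The species is known for exchanges between such chromosomes, in which a stretch of one is lost and the matching stretch of the other is present in its place, and accessions differ in the stretches exchanged. The shoot apex holds the meristem from which leaves and, after the floral transition, flowers arise, and LEAFY (LFY) is the transcription factor that gives young floral meristems their identity. DNA was not measured in the files used here.

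Each identifier gives the chromosome, A01 to A10 or C01 to C09, and a gene number. The gene number is used below as a position along the chromosome, since the genome build is not given in the sources used here. None of the identifiers matched the 123214 entries of the available gene table, so genes are given by identifier only, the markers of the shoot apex could not be checked, and the copy of LFY that names the haplotypes was not analysed here. How reads that fit both an A copy and a C copy were counted is likewise not given, so values of near-identical copies are uncertain.

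The R4817 libraries held 21960992 to 23821458 counts, against 23318589 to 32241484 in the R4168 and R4210 libraries, and R4817 was the shallower (exact permutation test over libraries, 3 against 6, two-sided p = 0.0476). No 2 libraries of an accession held identical values. The 3 libraries of R4817 agreed less well than those of R4168 or R4210, and its libraries 1 and 2 stood furthest apart. This is given first because each later result averages over them.

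Among 29243 genes with a mean of at least 5 CPM (the count scaled to a common library total) over the haplotype 2 libraries, 3955 (13.5%) differed by 2-fold or more between R4817 libraries 1 and 2. Libraries 1 and 3 differed by that much at 1276 genes (4.36%), and libraries 2 and 3 at 1377 genes (4.71%). Library 3 was thus about equally close to both of the others. The 3 pairs of R4168 libraries differed at 0.475% to 4.76% of the same genes, and the 3 pairs of R4210 libraries at 1.25% to 4.31%. Among the haplotype 1 accessions the pairs ranged up to 7.44% in R5044, up to 12.3% in R5159 and up to 6.54% in R5161. The pair of R4817 libraries 1 and 2 was the highest of the 18 pairs here, but close to the next one under other scalings: with total counts only it stood at 13.6% and the next at 13.3%. The biological coefficient of variation fitted by edgeR within an accession was 38.2% for R4817, against 25.7% for R4168 and 24.5% for R4210, and 38.5% for R5159 among the haplotype 1 accessions.

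**Figure D1:**
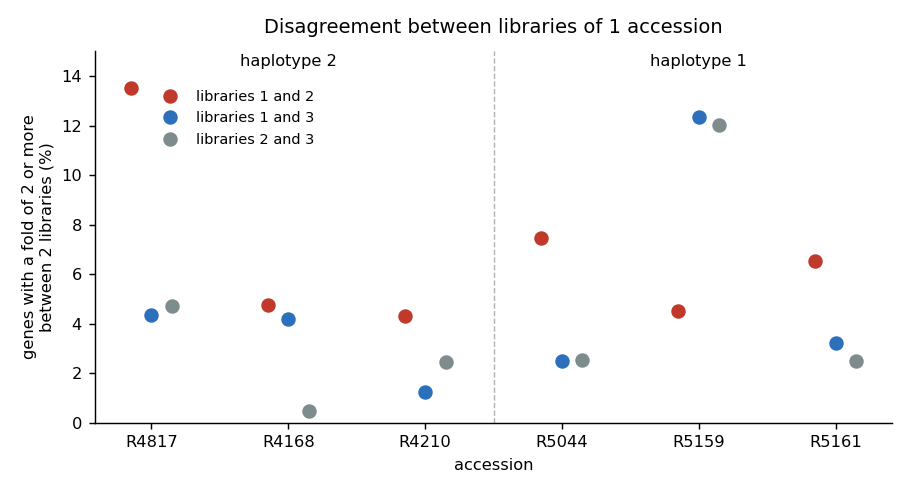
Share of 29243 genes (%, vertical axis, from 0) that differed by 2-fold or more between 2 libraries of the same accession, 1 point per pair of libraries, by accession. Libraries 1 and 2 of R4817 stand at 13.5%, above the other pairs of R4817, R4168 and R4210, which lie between 0.475% and 4.76%.

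Differences between accessions were of the same order as that between R4817 libraries 1 and 2. They were larger than those of its other pairs, at 4.36% and 4.71%. A library of R4817 differed by 2-fold or more from a library of R4168 or R4210 at 12.3% to 22.3% of these genes, with a median of 15.3%. Library 2 of R4817 lay furthest from the R4168 and R4210 libraries, at 14.7% to 22.3%, and library 3 nearest, at 12.3% to 16.8%. The 13.5% that separated R4817 libraries 1 and 2 falls inside the overall range.

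Larger differences showed how the 3 libraries of R4817 relate. Libraries 1 and 2 were 4-fold or more apart at 1351 genes, 801 of them higher in library 1 and 550 higher in library 2. The next highest count among the 18 pairs was 575, in R5159. Library 3 lay midway at these genes: on a linear scale where 0 is the lower and 1 the higher of libraries 1 and 2, its median place was 0.484, with quartiles of 0.421 and 0.549. It fell between 0.25 and 0.75 at 1280 of the 1351 genes (94.7%). The median was 0.475 where library 1 was the higher and 0.499 where library 2 was. In R4210, where 281 genes were 4-fold apart between libraries 1 and 2, the median place was 0.487 with wider quartiles of 0.371 and 0.627. In R4168, with 236 such genes, the median place was 0.837, and 16.9% of the genes fell between 0.25 and 0.75. It was 0.0409 at the 50 genes higher in library 1 and 0.879 at the 186 higher in library 2, so library 3 lay near library 2 in both groups. The haplotype 1 accession R5044 was much like R4817, with 374 such genes, a median place of 0.477 and quartiles of 0.39 and 0.555. There 87.4% of the genes fell between 0.25 and 0.75, against 54.3% of 337 genes in R5159 and 75.8% of 480 in R5161. In R5161, however, library 3 lay nearer the lower library, with a median place of 0.303 and quartiles of 0.259 and 0.373. The cause of the middle place was not tested.

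**Figure D2:**
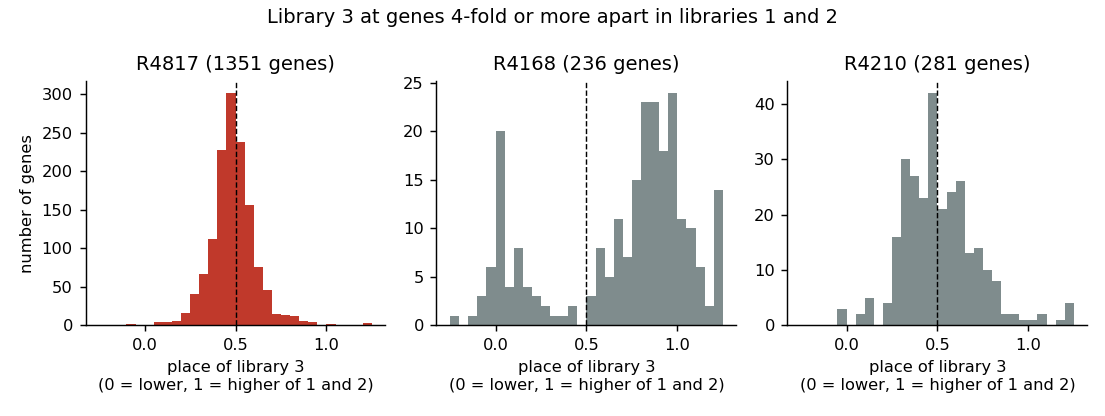
Number of genes (vertical axis) by the place of library 3 between libraries 1 and 2 (horizontal axis, linear CPM, 0 the lower and 1 the higher of the pair), for genes 4-fold or more apart in libraries 1 and 2 of R4817 (1351 genes), R4168 (236) and R4210 (281). Places beyond the axis are drawn in the outermost bars, and the dashed line marks 0.5, near which R4817 gathers with a median of 0.484.

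Some genes were silent in a single R4817 library. With silent meaning at most 3 counts, 198 genes were silent in library 1 and at 5 CPM or more in library 2, and 291 were silent in library 2 and at 5 CPM or more in library 1. All 198 were at 1 CPM or more in library 3, with a median of 0.517 of the library 2 level and quartiles of 0.441 and 0.604. All 291 were likewise at 1 CPM or more in library 3, with a median of 0.474 of the library 1 level and quartiles of 0.416 and 0.554. By contrast, 2 genes were silent in library 3 and expressed in library 1, and 0 were silent in library 3 and expressed in library 2. The same count for any ordered pair of libraries was at most 17 in R4168, 59 in R4210 and 91 in the haplotype 1 accessions. For scale, tested genes numbered 25284 on A and 27567 on C chromosomes, with 2465 on A01, 2677 on C01, 2907 on C07 and 3365 on C09. The genes silent in library 1 were spread over both subgenomes, 103 on A chromosomes and 94 on C chromosomes, with A01 holding 36. Those silent in library 2 lay on C chromosomes in 199 cases and on A chromosomes in 90, with C01 holding 73, C09 31 and C07 26. Many of the 198 were silent in other accessions too. R4168 had 90 of them at a mean of 1 CPM or more and 85 at no more than 3 counts over its libraries, and R4210 had 96 and 84. Most of the 291 were expressed in each of these accessions: R4168 had 225 and 40, and R4210 had 204 and 60.

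Part of the disagreement lay in stretches of neighbouring genes. Chromosomes were divided into windows of 100 gene numbers, of which 945 had at least 15 genes at a mean of 1 CPM or more over the haplotype 2 libraries. The median log2 difference between R4817 libraries 1 and 2 was at least 0.5 from 0 in 30 windows, 17 higher in library 1 and 13 lower, which joined into 16 segments. In 14 of them it was at least 1, and the largest median was 4.97. R4168 had 0 to 5 such windows per pair of libraries, and R4210 had 4 to 9. R5044 had more, with up to 59. The 16 segments held 1386 of the 44684 chromosome genes at a mean of 1 CPM or more. Of the 3173 such genes that were 4-fold or more apart, they held 476, and 2697 lay outside them. The segments were chosen by these differences, so the counts describe them and test nothing. The smallest median inside a segment was 0.515 and the largest outside was 0.455.

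The longest run lay on A01 between gene numbers 3601 and 4300, where 757 gene models summed to 4804 CPM in library 1, 9939 CPM in library 2 and 7578 CPM in library 3 of R4817. R4168 gave 6715, 7197 and 7253 CPM there, and R4210 gave 8766, 8144 and 8622 CPM. Library 1 of R4817 was below and library 2 above every R4168 and R4210 library, and library 3 was among them. On C01 the order was turned round: gene numbers 4401 to 4800 summed to 4106, 1557 and 2796 CPM in R4817 libraries 1, 2 and 3, against 3894, 4049.9 and 4084 CPM in R4168 and 2615, 1066 and 2020.0 CPM in R4210. R4210 thus also varied over this stretch, highest in library 1 and lowest in library 2. Gene numbers 4901 to 5200 on C01 gave 6209.9, 3261 and 4589 CPM in R4817, against 3900.3, 4286 and 4207 CPM in R4168 and 3344, 4455 and 3686 CPM in R4210.

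The A01 stretch was added to gene numbers 4401 to 5200 of C01, a pairing chosen after the values were seen and not from a map of homoeologues. The sum stayed close in the 3 R4817 libraries, at 15925, 15358 and 15654 CPM. The A01 part of it was 30.2% in library 1, 64.7% in library 2 and 48.4% in library 3. The same share was 45.3% ± 0.258 in R4168 and 57.1% ± 0.452 in R4210 (SD, n = 3 each), so the share spread far more between R4817 libraries than between those of R4168 or R4210.

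Other segments showed the same order of libraries. C01 gene numbers 2301 to 2500 summed to 2699, 728 and 1661 CPM in R4817 libraries 1, 2 and 3, against 2412, 2370.3 and 2337 CPM in R4168 and 2796, 3459.8 and 3019 CPM in R4210. Of its 92 measurable genes, 58 were 4-fold or more apart between R4817 libraries 1 and 2. A09 gene numbers 101 to 200 summed to 813, 83.0 and 406 CPM in R4817, against 579, 526 and 540.4 CPM in R4168 and 892, 920.0 and 884 CPM in R4210. C09 gene numbers 201 to 400 gave 2045, 609 and 1318 CPM in R4817, against 3491, 3351 and 3311 CPM in R4168 and 220.2, 207 and 239 CPM in R4210. In each of these stretches library 2 of R4817 was the lowest of its accession and library 3 lay between. Higher in library 2 were A09 gene numbers 1 to 100, at 808, 1699.6 and 1264 CPM in R4817 libraries 1, 2 and 3, and C09 gene numbers 1 to 100, at 1204, 3169 and 2242 CPM. In all 16 segments the summed level of library 3 fell between those of libraries 1 and 2, at a place of 0.405 to 0.783.

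Against the average of R4168 and R4210, 10189 of 53356 genes differed in R4817 (19.1%; edgeR quasi-likelihood test, Benjamini-Hochberg adjusted p under 0.05). Of these, 6414 were higher in R4817 (12.0%) and 3775 were lower (7.08%). The median log2 difference over all tested genes was 0.03. The test treats the libraries of an accession as replicates. With the 3 libraries of each accession summed, which leaves 1 accession against 2, edgeR called 0 of 61880 genes, and 3283 had an unadjusted p under 0.05. In bulk tissue, a lower value can come from fewer cells of a type or from less RNA per cell, and these cannot be told apart.

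The average of 2 accessions can differ from R4817 through a single accession, so genes were also required to differ from R4168 and from R4210 separately, in the same direction. This held for 3864 genes (7.24%), 2015 higher (3.78%) and 1849 lower (3.47%) in R4817. Higher and lower genes were thus nearer in number than against the average. Of the 6414 higher genes, 2317 were called against R4168 only and 1820 against R4210 only. For the 3775 lower genes the counts were 1109 and 722. Silence in R4168 or R4210 alone was frequent among the higher genes and rare among the lower ones. Of the higher genes, 687 had no more than 3 counts over the R4168 libraries while R4210 was above that. Another 607 had no more than 3 in R4210 while R4168 was above it. Among the lower genes these counts were 4 and 19. Both R4168 and R4210 were at that floor at 378 of the higher genes, and R4817 was at the floor at 473 of the lower genes. A further 447 genes had opposite calls, with R4817 above R4168 and below R4210 at 215 and the reverse at 232.

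Of the genes beyond both accessions, 1494 of the 2015 higher ones were at least 2-fold higher in R4817 and 1224 of the 1849 lower ones at least 2-fold lower. At least 16-fold were 572 higher and 441 lower. These are fitted folds in the smaller of both contrasts, and they depend on the prior count of the fit where a group is at the floor. All 3 R4817 libraries lay outside the range of the 6 R4168 and R4210 libraries at 1956 of the genes higher in R4817 and at 1830 of those lower, where 7842 of all tested genes had no overlap (14.7%). Without R4817 library 3, the count beyond both fell to 2620, and without library 1 it was 4793. For the comparison with the average, the count ranged between 6820 and 11097 when each of the 9 libraries was left out in turn.

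R4817 was not the accession with the most calls when each of the 3 took its turn against the other 2. The count for R4817 was 10189, with 3864 beyond both, while it was 13112 with 5094 beyond both for R4168, and 11165 with 3946 beyond both for R4210. These comparisons share libraries. In pairs, 10857 genes differed between R4817 and R4168, 8897 between R4817 and R4210 and 11805 between R4168 and R4210. R4817 also had the widest spread between libraries of the 3, and the part of that spread in the counts was not tested.

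The calls differed little between subgenomes and more between chromosomes. Beyond both accessions, 3.44% of the tested A genes were higher and 3.79% lower in R4817, and 4.11% of the C genes were higher and 3.19% lower. C09 had the highest share of higher genes, 242 of 3365 (7.19%), followed by C03 with 272 of 4363 (6.23%) and A04 with 6.06%. A05 had the lowest, 1.87%. Lower genes were most frequent on C02, with 183 of 2738 (6.68%), then on A04 with 4.83% and A02 with 4.75%. Against the average, C09 again led with 23.8% of its genes higher in R4817 and C05 followed with 17.1%, though at C05 2.87% were higher beyond both. Among the 1474 genes at a mean of 100 CPM or more, 1.97% were higher and 5.02% lower beyond both accessions, while among the 8616 genes under 1 CPM these shares were 3.96% and 2.47%.

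**Figure D3:**
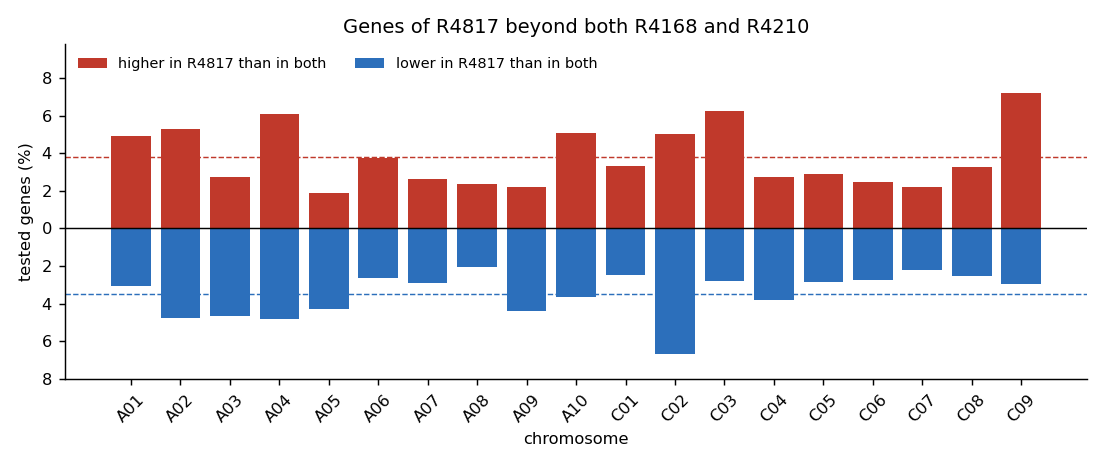
Share of tested genes (%) on each chromosome that were higher, and lower, in R4817 than in both R4168 and R4210 (edgeR adjusted p under 0.05 in both contrasts). C09 reaches 7.19% for higher genes and C02 6.68% for lower genes, against 3.78% and 3.47% over all tested genes.

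Summed over chromosomes, R4817 differed little. The A subgenome took 45.7% ± 0.238 of the chromosome counts in R4817, 45.8% ± 0.128 in R4168 and 47.3% ± 0.278 in R4210 (SD, n = 3 each; two-sided exact permutation test over libraries, p = 0.214). Of the 19 chromosomes, 0 passed the test of their share of counts after adjustment (exact permutation tests), and 5 had an unadjusted p under 0.05. A05 took 3.86% ± 0.129 in R4817, 4.05% ± 0.0848 in R4168 and 4.44% ± 0.0729 in R4210, and C03 took 9.42% ± 0.0941 in R4817, 8.90% ± 0.0919 in R4168 and 9.22% ± 0.0566 in R4210 (exact permutation p = 0.0238 and Benjamini-Hochberg adjusted p = 0.136 for each). The smallest p that 3 libraries against 6 allow is 0.0119. Over 19 chromosomes, an adjusted p under 0.05 then needs at least 5 of them to have a low p together. Its absence therefore does not show that the shares are equal. The disagreement of R4817 libraries showed here too: A01 took between 4.43% and 5.13% of the counts in R4817 libraries and between 4.64% and 4.85% in the R4168 and R4210 libraries, and C01 took between 4.57% and 5.41% in R4817 and between 4.87% and 5.17% in R4168 and R4210.

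R4817 had more genes at 1 CPM or more, 43782 ± 753, against 42542 ± 215 in R4168 and 42793 ± 340 in R4210 (SD, n = 3 each; two-sided exact permutation test, p = 0.0238). Library 2 of R4817, with 42934 genes, lay inside the range of the other accessions. The direction turned when genes were counted at 10 counts or more, at 49824 ± 741 in R4817, 49928 ± 1070 in R4168 and 49976 ± 1000 in R4210 (exact permutation p = 0.702). The count threshold does not scale with depth, and R4817 was sequenced less deeply.

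Windows along the chromosomes showed where R4817 stood apart from both accessions. A window was called shifted where it held at least 15 tested genes and its median log2 difference, centred on all tested chromosome genes, was at least 0.5 from 0 with the same sign against R4168, against R4210 and against their average. Of 965 windows, 18 were shifted, and they joined into 12 segments, 6 higher and 6 lower in R4817. They held 1020 of 52851 tested chromosome genes (1.93%) and 398 of the 3842 chromosome genes beyond both accessions (10.4%). The differences themselves chose the segments, so these counts are no test. The smallest median inside a segment was 0.507 and the largest outside was 0.485. Of the 18 windows, 10 in 6 segments remained whichever R4817 library was left out: those at the start of A03, C03 and C09, a second stretch of C09, and a pair on A09.

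**Figure D4:**
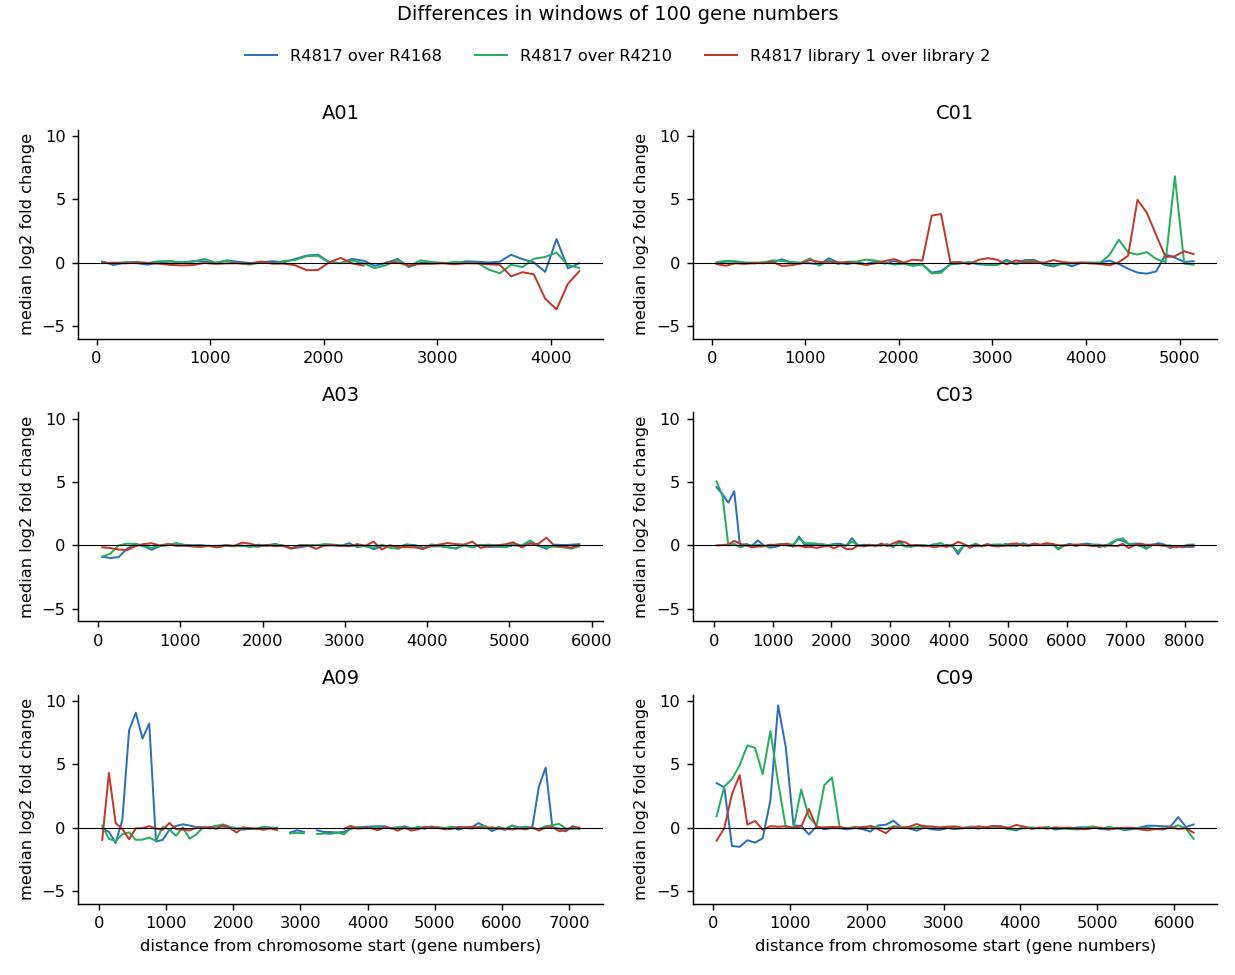
Median log2 fold change (vertical axis) in windows of 100 gene numbers along 6 chromosomes (horizontal axis, distance from the chromosome start in gene numbers), for R4817 over R4168 (blue), R4817 over R4210 (green) and R4817 library 1 over library 2 (red). Over the first 200 gene numbers of C03 the medians are 4.29 against R4168 and 4.34 against R4210, and the red line stays near 0, while on A01 and C01 it leaves 0.

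The start of C03 was the clearest. Its first 200 gene numbers summed to 2209.9, 2117 and 2159 CPM in R4817 libraries 1, 2 and 3, against 355, 359 and 353 CPM in R4168 and 460.4, 407 and 433 CPM in R4210. The lowest R4817 library stood far above the highest of the other 6, and the ratio of R4817 to their average was 5.48. Of 105 tested genes, 90 were higher in R4817 than in both accessions and 0 were lower, and the median log2 difference was 4.55. R4817 had 101 genes there at a mean of 1 CPM or more, R4168 had 41 and R4210 had 39. R4817 libraries 1 and 2 agreed in this stretch, with 0 of 88 genes 4-fold or more apart. The haplotype 1 accessions were near R4817, with 1739 ± 33.7 CPM in R5044, 1896 ± 47.4 CPM in R5159 and 1895 ± 24.9 CPM in R5161 (SD, n = 3 each), so here R4168 and R4210 were the low accessions of the 6.

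The first 200 gene numbers of A03 went the other way. They summed to 1569, 2036 and 1809 CPM in R4817, against 3117, 3140.5 and 3099.8 CPM in R4168 and 2706, 2705 and 2773 CPM in R4210. All 3 R4817 libraries were below all 6 others, and 51 of 136 tested genes were lower beyond both accessions and 0 higher. R4817 kept 105 of its genes at 1 CPM or more, against 118 in R4168 and 113 in R4210, so unlike C03 the difference was mostly one of level. Taken with the C03 stretch, in a pairing made after the values were seen, the sum was 3779, 4153 and 3968 CPM in R4817, against 3475 ± 23.5 CPM in R4168 and 3161 ± 47.0 CPM in R4210. The A03 part of the sum was 41.5%, 49.0% and 45.6% in R4817, against 89.8% ± 0.0265 in R4168 and 86.3% ± 0.748 in R4210. It was between 48.2% and 55.2% in the means of the haplotype 1 accessions.

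C09 held a pair of higher segments. Gene numbers 701 to 900 summed to 1977, 1745 and 1840.1 CPM in R4817, against 360.3, 329 and 339 CPM in R4168 and 472, 479.7 and 500.4 CPM in R4210. The groups did not overlap, the ratio was 4.49, and 64 of 106 tested genes were higher beyond both accessions with 0 lower. R4817 had 100 genes there at 1 CPM or more, R4168 had 36 and R4210 had 34. Among the haplotype 1 accessions only R5159 was at the R4817 level, with 2013, 2074 and 1766 CPM, while R5044 had 228, 316 and 270.2 CPM and R5161 had 105, 97.7 and 115 CPM.

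The first 200 gene numbers of C09 summed to 2572, 4478 and 3611 CPM in R4817, against 1158, 1169.9 and 1146 CPM in R4168 and 1938, 1939.8 and 1933 CPM in R4210. Every R4817 library was above those of R4168 and R4210, but the R4817 libraries spread widely. Gene numbers 1 to 100 belong also to the segments in which R4817 libraries 1 and 2 disagreed. The haplotype 1 accession R5044 had a like level, order and spread, at 2311, 4699.7 and 3464 CPM. R5159 had 2542 ± 143 CPM and R5161 1506 ± 246 CPM (SD, n = 3 each). Of 108 tested genes, 63 were higher beyond both accessions and 0 lower.

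The A09 segments were lower in R4817. Gene numbers 801 to 900 summed to 1412, 1355 and 1387 CPM in R4817, against 2883, 2679 and 2718 CPM in R4168 and 2959.7, 2829 and 2829 CPM in R4210, and 42 of 69 tested genes were lower beyond both accessions. Gene numbers 201 to 300 summed to 1883, 840.0 and 1357 CPM in R4817, against 3873, 4192 and 4218 CPM in R4168 and 2934, 3083 and 2877 CPM in R4210, and 31 of 71 were lower. The R4817 libraries agreed over gene numbers 801 to 900 and spread widely over 201 to 300, yet lay below all 6 R4168 and R4210 libraries in both. Over 201 to 300 the haplotype 1 accession R5044 also spread widely, at 3084, 833 and 2004 CPM. R5159 had 2229.9 ± 42.3 CPM there and R5161 2987 ± 214 CPM (SD, n = 3 each). R5159, which was near the R4817 level on C09 between 701 and 900, had 1493, 1427 and 1483 CPM over A09 gene numbers 801 to 900, while R5044 and R5161 had between 2349.6 and 2623 CPM.

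**Figure D5:**
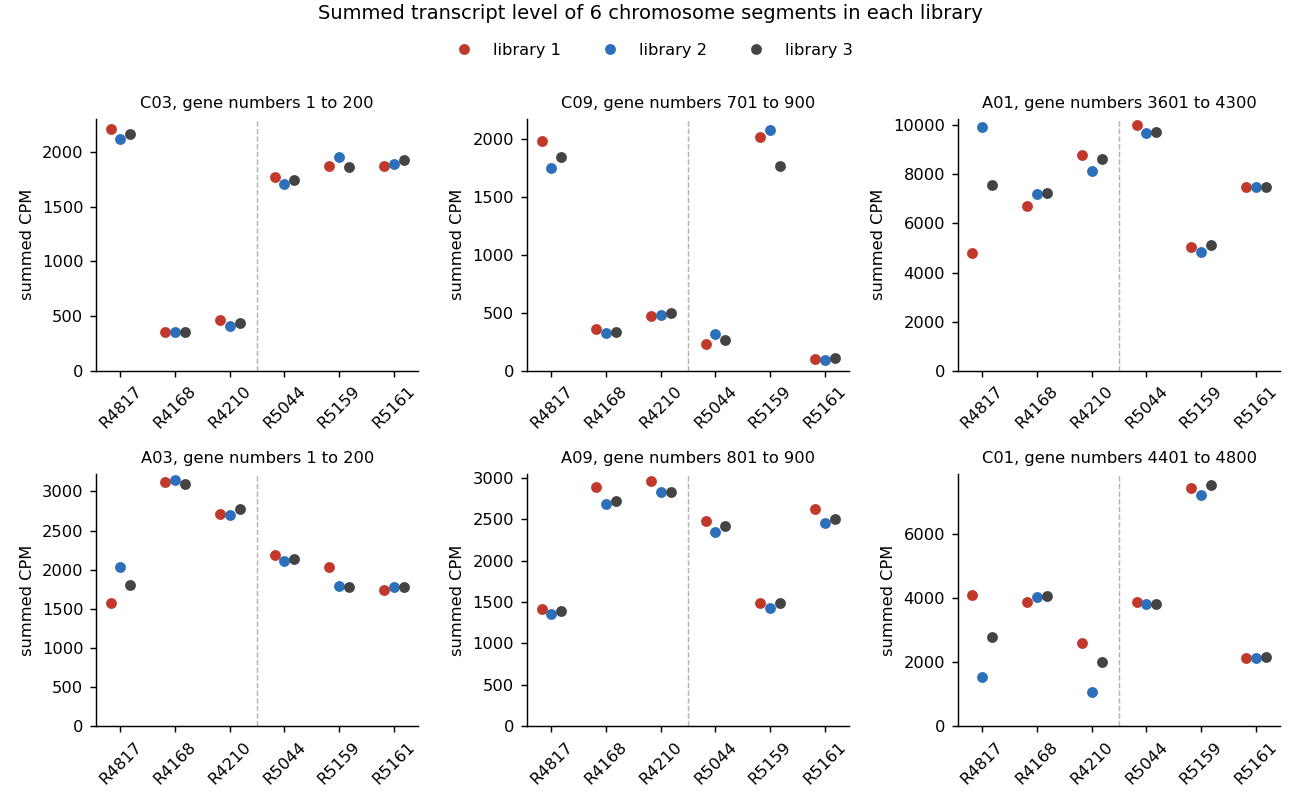
Summed CPM (vertical axis, from 0) of 6 chromosome segments in each of the 18 libraries, 1 point per library coloured by library number, R4817 at the left and the haplotype 1 accessions right of the dashed line. R4817 is high on C03 (2117 to 2209.9 CPM) and C09 (1745 to 1977 CPM) and low on A03 and A09, and its libraries fan out on A01 (4804, 9939 and 7578 CPM) and C01.

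The other 6 segments rested on particular libraries. A01 1801 to 2000, A01 4001 to 4100 and C01 2301 to 2500 were no longer shifted without R4817 library 2, C02 101 to 200 without library 1, and C03 1401 to 1500 and C05 4601 to 4700 without library 1 and also without library 3. A01 4001 to 4100 summed to 294, 1975 and 1209 CPM in R4817, against 587, 555 and 554 CPM in R4168 and 1131, 283 and 746 CPM in R4210, and 1 of 45 genes was beyond both accessions. C02 101 to 200 was steadier, at 497, 574 and 531 CPM in R4817, against 770.4, 712 and 718 CPM in R4168 and 791, 746 and 847 CPM in R4210, with 17 of 55 genes lower beyond both and 1 higher.

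A larger number of windows, 42, passed the threshold against the average without passing it in the same direction against both accessions. In 34 of them R4817 was above the average on the log2 scale, which does not mean above both accessions. C09 had 8 such windows in which the larger difference was against R4210, between gene numbers 201 and 1600, and A09 had 7 in which it was against R4168. Over C09 201 to 400 the median log2 difference was 1.41 against the average, 4.08 against R4210 and -1.49 against R4168. R4817 summed to 1324 CPM there, below R4168 with 3384 CPM and above R4210 with 222 CPM. On C05 there were 6 between 4901 and 5500, all above the average in R4817 with the larger difference against R4210. An example is A09 401 to 500, which summed to 685, 1403 and 1045 CPM in R4817, against 28.5, 28.9 and 24.9 CPM in R4168 and 1307, 1272 and 1339 CPM in R4210. Here R4168 was the low accession, and R4817 libraries 1 and 3 lay below R4210 and library 2 above it.

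Presence and absence of transcripts was counted without a test. Present at 1 CPM or more in each R4817 library and at no more than 3 counts over the 6 R4168 and R4210 libraries were 264 genes, 181 on C chromosomes and 82 on A chromosomes. For scale, 27567 tested genes lay on C and 25284 on A chromosomes. C09 held 50 of the 264 beside 3365 tested genes, C03 46 beside 4363, C02 33 beside 2738 and A10 15 beside 1849. In the 12 segments lay 57 of the 264, beside 1020 of the 52851 tested chromosome genes. The levels of the 264 were low, with a median of 4.90 CPM in R4817. Many were seen outside haplotype 2: R5044 had 154 of them at a mean of 1 CPM or more, R5159 had 160 and R5161 had 124, with 89 in all 3 accessions. At 34 of the 264, all 3 haplotype 1 accessions were also at no more than 3 counts.

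The reverse, no more than 3 counts over the R4817 libraries and 1 CPM or more in each R4168 and R4210 library, held for 174 genes, 112 on C and 62 on A chromosomes. C02 held 27 beside 2738 tested genes, C04 19 beside 3131 and C09 19 beside 3365, and 9 of the 174 lay in segments. All 3 haplotype 1 accessions had 34 of these genes at 1 CPM or more, and 43 were at the floor in all 3. Counted the same way, 71 genes were present only in R4168 and 356 absent only there, and 78 were present only in R4210 and 304 absent only there. R4817 thus had the most genes present in it alone among the 3 accessions and the fewest absent from it alone.

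In each direction, 1 gene with the most extreme fitted difference and 1 with the most extreme difference among genes at 1 CPM or more in all 9 libraries were taken from the genes beyond both accessions, and the files do not pair these identifiers with names. BnaA10T0124600ZS, gene number 1246 of A10, was at 88.2, 116 and 100.1 CPM in R4817 and at 0 counts in all R4168 and R4210 libraries. The haplotype 1 libraries were at 0 too, so R4817 was the sole accession of the 6 with reads of this gene. With 3 counts over the 6 libraries as the floor it was at least 5700-fold higher in R4817 (edgeR adjusted p = 1.54e-06).

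BnaC09T0080000ZS, gene number 800 of C09 and inside the segment from 701 to 900, was at 143, 157 and 149.9 CPM in R4817, against 2.93, 2.79 and 2.202 CPM in R4168 and 1.75, 1.97 and 2.72 CPM in R4210. Its log2 fold change was 5.95 with a standard error of 0.146 (edgeR adjusted p = 4.96e-08). R5159 had 85.4, 93.9 and 43.7 CPM, R5044 had 20.2, 29.1 and 20.2 CPM and R5161 had 1.34, 1.46 and 2.17 CPM, so its level in the haplotype 1 accessions followed the order of the whole segment.

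BnaA05T0385700ZS, gene number 3857 of A05, was at 0 counts in all R4817 libraries, against 243, 205 and 217 CPM in R4168 and 206, 174 and 209 CPM in R4210. It was at least 4810-fold lower in R4817, with 3 counts over its libraries as the floor (edgeR adjusted p = 7.62e-08). The haplotype 1 libraries were at 0 apart from 0.0577 CPM in R5044 library 3, so here R4168 and R4210 were the accessions that stood out. BnaA03T0184500ZS, gene number 1845 of A03, was at 2.86, 4.69 and 5.74 CPM in R4817, against 109, 379.6 and 375 CPM in R4168 and 603, 513 and 627 CPM in R4210. Its log2 fold change was -6.56 with a standard error of 0.523 (edgeR adjusted p = 1.49e-05). Library 1 of R4168 was the lowest of its group but still far above R4817, and the haplotype 1 libraries ranged between 0 and 0.865 CPM.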

How the data were processed

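The deposited table holds raw counts per gene model and library, made by the authors with HISAT2 2.2.1 and featureCounts, per the submitters' processing notes. Build, gene annotation, strandedness and handling of multi-mapping reads were not given in the sources used here. All 18 columns carried a library's title, and 0 were left unmapped. From these counts, the 9 haplotype 2 libraries were filtered with filterByExpr, scaled by TMM and fitted with 1 coefficient per accession by edgeR 4.0.16 in R 4.3.3 (glmQLFit, glmQLFTest), with Benjamini-Hochberg adjustment over all 53356 genes. The fit was tested on simulated data, with less spread between libraries than the real libraries of R4817, R4168 and R4210 had. CPM in the text are counts divided by the library's total over all gene models. Single values per library were compared by a two-sided exact permutation test over libraries (scipy 1.17.1). Folds, and the place of library 3, between libraries used TMM-scaled CPM, with 0.1 added before log2 for the folds. Counts of at most 3 were taken as the floor, which covers counting error only. Segments join adjoining shifted windows of 100 gene numbers. Named genes, at most 2 in each direction, were taken among genes beyond both accessions with a mean of at least 1 CPM and no overlap of libraries, as the most extreme difference and the most extreme among genes at 1 CPM in all 9 libraries. Gene lists were not used, because 0 identifiers matched names. The accessions, the windows and the lists were chosen with earlier results of these data known. Alternatives were DESeq2 1.42.0, limma-voom (limma 3.58.1), other scalings, filters and thresholds, accession sums and each library left out.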

Additional observations from a re-analysis of the deposited data

How the results depend on the processing

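The number of genes differing between R4817 and the average of R4168 and R4210 (10189) moved to 0 with accession sums as replicates in edgeR (3283 at an unadjusted p under 0.05; lone sums are assumed to vary alike) and to 6658 with a fold of at least 2. It was 12376 with DESeq2, 9764 with limma-voom, 10893 with all 18 libraries and 6820 to 11097 with each library left out, lowest without R4817 replicate 3. Genes beyond both accessions (3864) ranged between 2620 and 4793 on leaving out libraries. Same-numbered libraries of different accessions correlated weakly: the 9 correlations of same-numbered deviations lay between -0.00801 and 0.0903, 0 of them over 0.1. In 5 of the 9 the same-numbered libraries correlated better than those of other numbers, and pairing by replicate number was not tested. With the replicate block, 9265 genes were called and 3509 were beyond both. The difference in genes at 1 CPM or more (1114) turned to -128 at 10 counts (exact permutation p = 0.702), was 858 at 5 CPM (p = 0.0595) and 819 to 1538 with each library left out; it missed 0.05 without R4817 replicate 1 (985) and without replicate 3 (819), where exact p was 0.0714. Disagreement between R4817 libraries 1 and 2 (13.5%) was 19.2% at a mean of 1 CPM, where the largest other pair had 18.6%, 13.6% with total counts only and 13.5% with DESeq2's size factors, where the largest other pair had 13.3% in both, and 11.0% at a mean of 20 CPM, against 7.73%. Segments held 1020 genes, against 2802 at a threshold of 0.25, 402 at a threshold of 1 and 604 in windows of 200, and 895 to 1042 without each R4817 replicate. The 4 named genes kept their call in 17 of 18 alternatives each and lost it with accession sums (edgeR adjusted p = 0.82). For windows in which R4817 libraries 1 and 2 differed, a threshold of 1, chosen after seeing the data, left 14 of 30. The other results kept their direction and side of the threshold under their alternatives. The cause of these changes was not tested beyond what each setting removes.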

Other observations

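The first 900 gene numbers of A09 and C09 added up, a range chosen after the values were seen, gave an A09 share of the summed CPM of 44.4% ± 3.04 in R4817, 37.6% ± 2.72 in R4168 and 84.2% ± 0.120 in R4210 (SD, n = 3 each). Haplotype 1 accession R5044 had 71.1% ± 9.11, R5159 had 50.7% ± 1.53 and R5161 had 87.9% ± 1.36. R4817 and R4168 were the lowest of the 6 accessions over this range and R4210 was near the highest.

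Over C01 gene numbers 4401 to 4800, haplotype 1 accession R5159 summed to 7452, 7239 and 7551 CPM, R5044 to 3883, 3811 and 3828 CPM and R5161 to 2146, 2145 and 2167 CPM. Their libraries agreed within an accession there, in contrast to R4817 with 4106, 1557 and 2796 CPM.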
